A study of Drosophila melanogaster with 12 samples.

Results

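The digestive lipase genes of *Drosophila melanogaster* followed here were 10 genes taken from a list of symbols: *mag*, *CG6271*, *CG6277*, *CG6283*, *CG6295*, *CG6296*, *CG17191*, *CG17192*, *CG31091* and *CG8093*. FlyBase gene identifiers in the count tables were mapped to these symbols. All 10 were listed in the gut table of 10358 genes, and 7 were listed in the fat body table of 11056 genes. *CG6271*, *CG17191* and *CG31091* were not listed in the fat body table, from which the authors had removed genes with no reads and those left out of an earlier experiment's analysis, so their absence need not mean that they had none. The list covers 10 of the 11409 genes measured in either tissue. The study asked what lowering the ETS factor *pointed* (*pnt*) does to transcripts of the gut and fat body.

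Adult females carried *UAS-Pnt RNAi* with S106, a GeneSwitch driver active in gut and fat body once flies eat the drug RU486, in an outbred Dahomey background with the *w1118* mutation and without Wolbachia. Induced flies ate RU486 at 200 µM for 6 days. Control flies had the same genotype and ate food with the ethanol vehicle; they are labelled as without RU486, although the treatment text of the labels gives the drug for every sample. Each of the 4 groups (induced gut, control gut, induced fat body, control fat body) had 3 libraries, and a library held organs pooled from 12 flies. Flies that ate RU486 without the RNAi transgene were not sequenced in this set, so effects of the drug and of the RNAi cannot be told apart. The fat body was the abdomen that remained after gut and reproductive organs were taken out. Other tissue of the abdomen was therefore part of it.

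Dietary fat reaches the fly midgut as triacylglycerol and sterol esters, which enterocytes cannot absorb whole. Lipases secreted into the gut lumen split these into free fatty acids, glycerides and free sterol, and enterocytes take the products up and export them on lipoproteins. *mag* (*magro*) encodes the best studied of these enzymes, a relative of mammalian gastric and lysosomal acid lipase that breaks down triacylglycerol and cholesterol esters and is controlled by the nuclear receptor Hr96. *CG8093* and *CG31091* encode predicted lipases of the same acid lipase family. *CG6271*, *CG6277*, *CG6283*, *CG6295*, *CG6296*, *CG17191* and *CG17192* encode predicted enzymes related to mammalian pancreatic triacylglycerol lipase.

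The 7 genes of the pancreatic type lie side by side. In genome release 6 (Ensembl annotation of build BDGP6) they occupy 22874 bases of chromosome 3R, from 27003236 to 27026109, all on the minus strand, in the order *CG6296*, *CG6295*, *CG17192*, *CG17191*, *CG6283*, *CG6277* and *CG6271*. The one other annotated gene on that strand or its opposite that starts within the group is a *roo* transposon insertion between *CG6295* and *CG17192*. The whole group sits inside 1 intron of *RYa-R*, a neuropeptide receptor gene on the plus strand, with no exonic base shared. *mag* lies on chromosome 3L at 20460683 to 20462274 on the plus strand, within *atk* on the other strand and again without shared exonic bases. *CG31091* lies on 3R at 25899903 to 25902172 on the plus strand, and *CG8093* on 2R at 15214060 to 15215686 on the minus strand. The annotated proteins of *mag*, *CG8093* and *CG31091* have 399, 398 and 424 residues. Those of the 3R group have 337 to 341 residues, except *CG6296* with 676. How reads of these related neighbours were shared out when they matched more than 1 gene is not given in the sources used here, so small counts of a gene beside an abundant relative are uncertain. Nor is the use of strand in counting given, and without it reads from *RYa-R* or *atk* introns over these genes cannot be told apart from their own.

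Counts per library summed to between 5916313 and 10254951 in the gut and between 4932359 and 9580571 in the fat body. Control gut replicate 3 and control fat body replicate 3 stood apart from the other libraries of their groups. Without the former, edgeR called 879 gut genes in place of 5. The latter had the highest sum of fat body markers, 119426 CPM (counts scaled to a library of 1000000), where the other 5 fat body libraries had 29069 to 55253 CPM. The 17 marker genes of the gut (trypsins, Jonah proteases, maltases and others) summed to 47029 to 91706 CPM in the gut libraries and to 33.2 to 140 CPM in the fat body libraries. The 8 fat body markers summed to 1705 to 2540 CPM in the gut. Of these 8, 6 were called lower in control gut than in control fat body, and 1 was called higher (log2 difference 4.39). Of all genes, 18.3% were called lower and 19.9% higher. The sum in the gut is therefore not a measure of fat body tissue alone. *pnt* itself had 21.97, 21.95 and 24.4 CPM with induction in the gut, against 29.2, 31.8 and 23.8 CPM without. In the fat body it had 8.06, 10.2 and 10.8 CPM with induction, against 11.1, 11.2 and 13.4 CPM without. The induced fat bodies all lay below the controls, and the induced guts overlapped control replicate 3. Groups failed to overlap, in either direction, for 8.27% of all fat body genes. Neither difference passed the test (log2 fold change -0.31, SE 0.21, adjusted p = 0.838 in the gut; -0.30, SE 0.26, adjusted p = 0.986 in the fat body; edgeR quasi-likelihood test, Benjamini-Hochberg over all genes).

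The lipase genes differed widely in level in the gut, with 4424-fold between the highest and the lowest mean per length. Levels of different genes are compared as CPM divided by the length of the gene's exons in kb. *CG6295* had the highest mean, 2594 ± 1040 CPM per kb (SD over the 6 gut libraries), and ranked 52nd among 10279 gut genes with a known length. *mag* followed with 1477 ± 251 CPM per kb (rank 107) and *CG17192* with 1053 ± 262 CPM per kb (rank 149). These 3 neighbours in the order overlapped in range: *CG6295* exceeded *mag* in 5 of 6 libraries, and *mag* exceeded *CG17192* in 5 of 6.

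A middle tier of 4 genes lay below them, without overlap. *CG6296* averaged 131 ± 32.4 CPM per kb, *CG8093* 130 ± 58.1, *CG6277* 68.1 ± 33.7 and *CG6283* 50.1 ± 28.2 CPM per kb. Within this tier each gene was above the next in 4 of 6 libraries, so neighbours in the order were not resolved. *CG6296* and *CG8093* were each above *CG6283* in 6 of 6 libraries. The remaining 3 genes were scarce. *CG6271* averaged 3.31 ± 2.09 CPM per kb, *CG31091* 0.724 ± 1.16 and *CG17191* 0.586 ± 0.318 CPM per kb. *CG6271* was above *CG31091* in 6 of 6 libraries, though their ranges met, and the ranges of *CG31091* and *CG17191* overlapped. *CG17191* and *CG31091* rested on 30 and 59 counts in all over the 6 gut libraries.

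**Figure D1:**
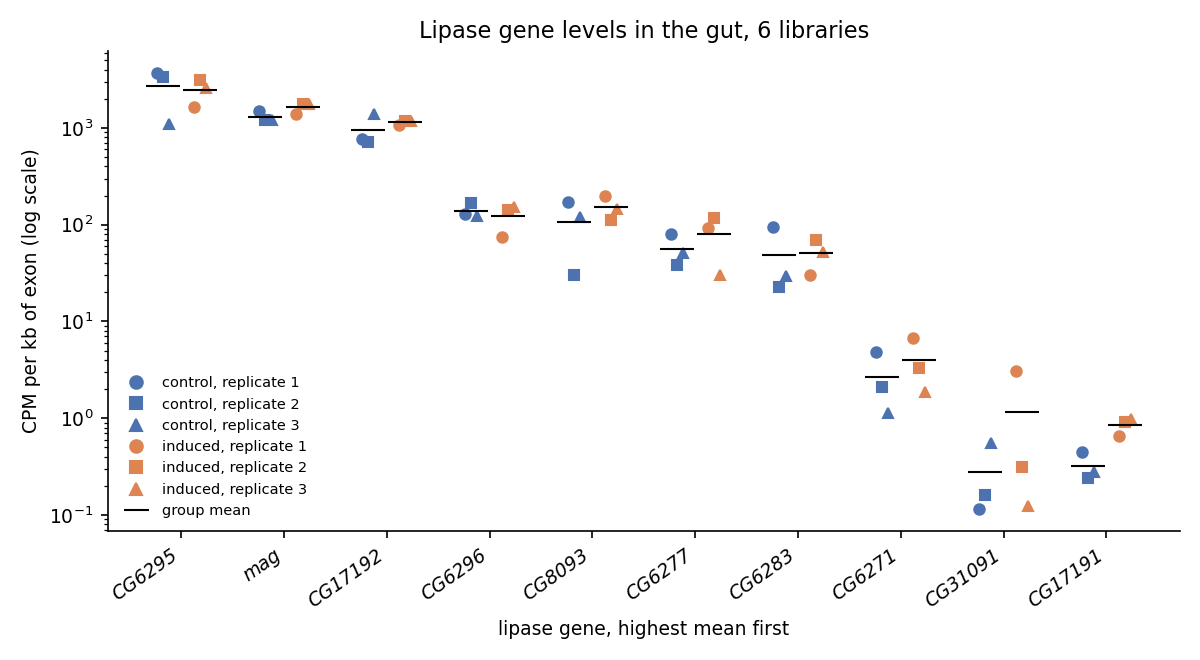
Level of the 10 lipase genes in each of the 6 gut libraries, in CPM per kb of exon on a log axis; blue points are control and orange points induced libraries, the marker shape gives the replicate and black bars the group mean. *CG6295*, *mag* and *CG17192* form an upper tier whose library values lie between 709.8 and 3741 CPM per kb, and the induced and control points of *CG17191* alone do not overlap.

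Position in the 3R group did not order the levels. Going along the chromosome from *CG6296* to *CG6271*, the mean gut levels were 131, 2594, 1053, 0.586, 50.1, 68.1 and 3.31 CPM per kb. *CG17192* and *CG17191*, which lie 320 bases apart, differed 1795-fold, the widest step between neighbours. In the reference annotation the 2 most abundant members of the group, *CG6295* and *CG17192*, flank the *roo* insertion. Whether the flies used here carry it, and whether it bears on these levels, was not tested.

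Together the 10 genes took 0.461% to 0.807% of all gut counts. The share reached 0.530%, 0.807% and 0.731% with induction and 0.783%, 0.756% and 0.461% without, with the lowest value in control replicate 3. In CPM the sum averaged 6960 ± 1222 in induced and 6507 ± 1449 in control guts (SD, n = 3), a difference smaller than either SD. *mag*, *CG6295* and *CG17192* supplied 89.0% to 93.0% of the lipase counts in each gut library.

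The balance among these 3 genes varied more than their summed share. *mag* made up 37.0%, 32.7% and 35.8% of lipase counts with induction and 28.2%, 26.8% and 36.0% without. *CG6295* made up 32.1%, 42.9% and 38.3% of lipase counts with induction and 52.1%, 55.1% and 23.9% without. *CG17192* made up 19.96%, 15.8% and 17.1% with induction and 10.4%, 11.1% and 29.3% without. The ratio of *CG6295* to *CG17192* counts was thus 1.61, 2.71 and 2.24 with induction, and 5.005, 4.96 and 0.817 without. Induced libraries lay between control replicates 1 and 2 on one side and control replicate 3 on the other, so the groups overlapped. Control replicate 3 was the one gut library in which *CG17192* exceeded *CG6295*.

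**Figure D2:**
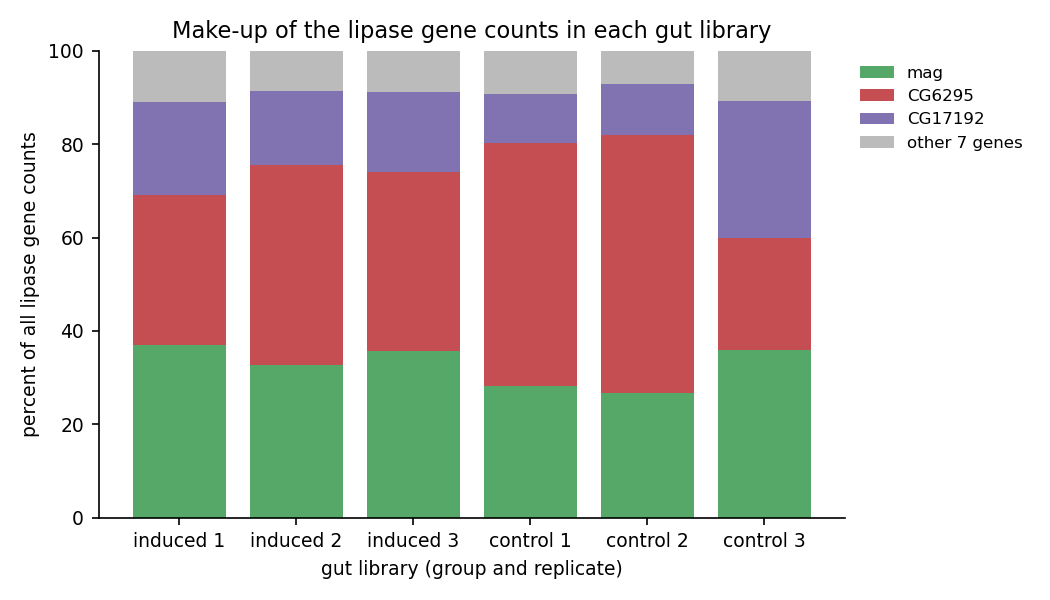
Stacked bars of the percent of all lipase gene counts that came from *mag*, *CG6295*, *CG17192* and the other 7 genes in each gut library. Control replicates 1 and 2 have the largest *CG6295* share (52.1% and 55.1%), and control replicate 3 the smallest (23.9%).

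No lipase gene passed the test for induction in the gut. Of the 10, edgeR called 0 at a 10% false discovery rate, beside 5 of 10358 genes in all (0.0483%), and the smallest adjusted p among the 10 was 0.836. DESeq2 called 0 of the 10 as well, beside 43 genes (0.415%). At an unadjusted p under 0.05 there was 1 lipase gene, *CG17191*, where 5.43% of all genes reached that mark. The fitted log2 fold change was positive for 8 and negative for 2 of the 10, with a median of 0.42 against -0.06 over all gut genes. The median log2 CPM of the lipase genes had an SD of 0.69 between replicates of a group, which is larger than that median. All 10 values come from the same 6 libraries. Without control gut replicate 3, the smallest adjusted p among the lipase genes was 0.108 (*CG17192*), and still 0 were called.

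*mag* varied least over the 6 gut libraries, with 1.47-fold between the highest and the lowest, although among induced guts alone *CG17192* varied less (a coefficient of variation of 6.62% against 12.8%). Its 3 induced libraries read 2072, 2603 and 2620 CPM, and its 3 controls 2206, 1799.5 and 1785 CPM. The highest values were induced replicates 2 and 3, while induced replicate 1 lay below control replicate 1. Its mean was 2432 ± 312 CPM with induction and 1930 ± 239 CPM without (SD, n = 3; log2 fold change 0.33, SE 0.26, 95% interval -0.26 to 0.93, adjusted p = 0.843, edgeR).

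*CG8093*, the second most abundant acid lipase gene, read 308, 175 and 227 CPM with induction and 266, 47.4 and 187 CPM without. Control replicate 2 was far below the other 5 values, which were intermixed. The log2 fold change was 0.51 (SE 0.54), and 0.08 without control replicate 2.

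*CG31091* read 6.61, 0.665 and 0.268 CPM with induction and 0.245, 0.347 and 1.2 CPM without. Its fitted log2 fold change of 2.06 (SE 1.16, 95% interval -0.61 to 4.73) came from the 37 counts of induced replicate 1, and it was -0.23 without that library. The 5 other libraries held 2 to 8 counts each.

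Among the genes of the pancreatic type, *CG6295* read 1794, 3410 and 2806 CPM with induction and 4081, 3704 and 1187 CPM without. Control libraries held both the highest values and the lowest one. The log2 fold change was -0.16 (SE 0.48), with a 95% interval from -1.27 to 0.94.

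*CG17192* read 1117, 1258 and 1253 CPM with induction, with an SD of 80.1 CPM, and 815, 747 and 1453 CPM without, with an SD of 390 CPM. Induced libraries were above control replicates 1 and 2 and below control replicate 3. The log2 fold change was 0.27 (SE 0.31), and 0.65 without control replicate 3.

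*CG6296* read 158, 304 and 325 CPM with induction and 272, 356 and 261 CPM without. Induced replicate 1 was the lowest, and the rest were intermixed (log2 fold change -0.17, SE 0.31). *CG6277* read 101, 126 and 33.1 CPM with induction and 86.9, 41.7 and 54.7 CPM without, with the induced libraries at both ends (0.50, SE 0.48). *CG6283* read 33.0, 76.2 and 57.1 CPM with induction and 103, 24.6 and 32.1 CPM without, with the controls at both ends (0.06, SE 0.55).

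*CG6271* read 7.14, 3.55 and 2.01 CPM with induction and 5.15, 2.26 and 1.2 CPM without, in overlap (log2 fold change 0.53, SE 0.63). *CG17191* was the one member whose groups did not overlap: it had 4, 9 and 8 counts with induction and 4, 3 and 2 without, or 0.714, 0.998 and 1.07 CPM against 0.491, 0.260 and 0.300 CPM. Its log2 fold change was 1.40 (SE 0.54, 95% interval 0.17 to 2.63, adjusted p = 0.836, edgeR). Groups failed to overlap for 10.2% of all gut genes (5.38% with the induced group higher), and an exact permutation test of *CG17191* gave a two-sided p of 0.1, the smallest that 3 libraries against 3 allow. The other 9 members gave exact permutation p values from 0.2 to 0.9.

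**Figure D3:**
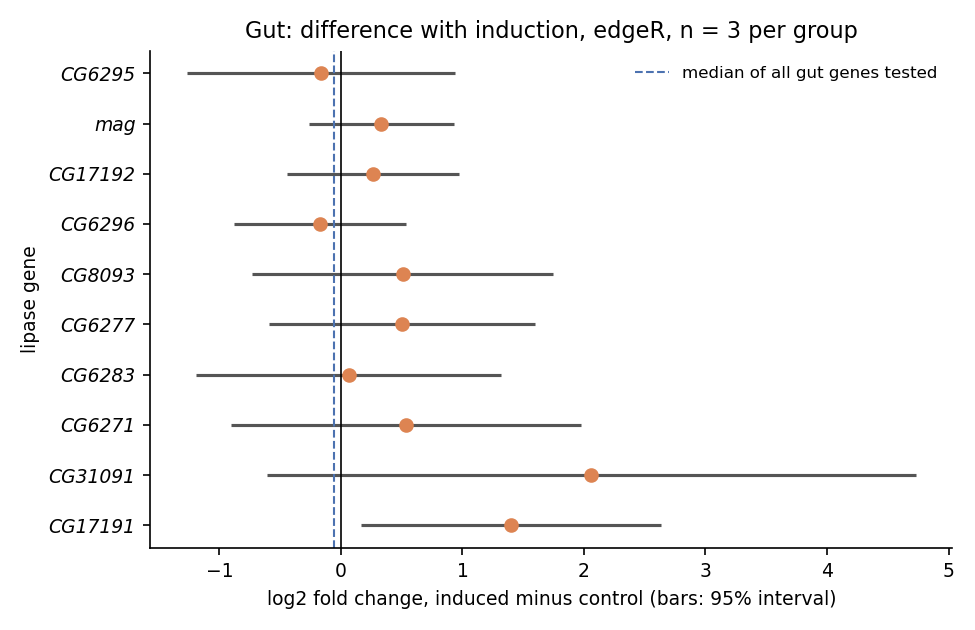
Log2 fold change of the 10 lipase genes in induced over control guts (points) with 95% intervals (bars), from edgeR with 3 libraries per group; the dashed line is the median of all gut genes, -0.06. Of the 10 intervals, 9 include 0, and that of *CG17191* runs from 0.17 to 2.63 before adjustment.

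The members did not move as a block across gut libraries. Among the 7 lipase genes with a mean of at least 10 CPM, the 21 pairs had a median Pearson r of 0.21 over the 6 libraries, from -0.71 (*CG6295* with *CG17192*) to 0.74 (*mag* with *CG6283*), and 15 were positive. These are descriptions over 6 shared libraries. The mean log2 CPM of the 7 was compared in the same way with 6138 other genes of at least 10 CPM. Of these, 4 had an r above 0.9. The highest of so many values over 6 libraries can arise by chance, which was not tested, so the ranking is a description only. Closest were *Las*, which encodes lipoic acid synthase (r = 0.95), *CG18547* (0.91), *betaGlu* (0.91), the mitochondrial ribosomal protein genes *mRpS9* (0.91) and *mRpL3* (0.90), *CG10376* (0.89), *Hacd1* (0.89) and *CG11125* (0.89).

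Other lipases, and the genes that handle their products, were read with the same fits. Of 19 further genes of the acid lipase family listed, 7 were in the gut table, and 0 were called with induction (median log2 fold change 0.34, all 7 positive). Highest per length were *CG2772* at 44.1, *CG3635* at 26.7 and *Lip4* at 7.99 CPM per kb, all below the means of the middle tier. Of 22 further genes of the pancreatic lipase family, 11 were in the gut table, and 0 were called (median 0.09, 8 positive). At an unadjusted p under 0.05 (edgeR) there were 3 of these 11 and 0 of the 7 acid lipase genes, beside 5.43% of all genes. The 3 were *CG18258* and *CG10163*, both positive, and *CG5966*, negative. *CG18258* had 1, 9 and 28 counts with induction and 0, 0 and 1 without (log2 fold change 4.95, SE 1.37, adjusted p = 0.836, edgeR). *CG10116* was highest at 140 CPM per kb, near the mean of *CG6296*, followed by *CG17292* at 41.0 and *CG7367* at 15.5 CPM per kb.

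Genes for uptake and export of lipid included *Npc2e* and *Npc2d*, of a family of secreted sterol-binding proteins, and *Npc1b*, needed for sterol absorption in the midgut. Their means in the gut were 3649, 343 and 181 CPM per kb. Of 14 such genes, 0 were called with induction (4 positive, 10 negative, median -0.19), and 4 had an unadjusted p under 0.05 (edgeR), beside 5.43% of all genes. *Npc1b* read 450, 590 and 588 CPM with induction and 1200, 638 and 840 CPM without, with no overlap (log2 fold change -0.72, SE 0.29, adjusted p = 0.836, edgeR). Groups failed to overlap, in either direction, for 10.2% of all gut genes.

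A further list held 6 genes of gut regulation and enterocytes (*Hr96*, *sug*, *Hnf4*, *GATAe*, *Tk* and *Myo31DF*). All 6 fitted values were negative and 0 were called (median -0.36). The most abundant were *sug*, a zinc finger factor of the sugar response, at 165 CPM per kb, *Myo31DF*, an unconventional myosin, at 41.1, and *Hr96* at 25.9 CPM per kb. *Hr96* read 68.0, 54.7 and 64.9 CPM with induction and 85.0, 59.2 and 109 CPM without, with overlap at control replicate 2 (log2 fold change -0.43, SE 0.26, adjusted p = 0.836).

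The fat body held very few lipase counts. The 7 listed genes summed to 31, 107 and 185 counts with induction and to 61, 35 and 83 without, which is 0.000479% to 0.00223% of the library. Per length, *mag* was highest in 3 fat body libraries (induced replicate 1 and control replicates 1 and 2) and *CG6295* in the other 3, whereas in the gut *CG6295* was highest in 5 libraries and *CG17192* in control replicate 3. *mag* had 16, 44 and 72 counts with induction and 32, 29 and 31 without, so that the induced values lay on both sides of closely placed controls.

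*CG6295* had 3, 33 and 61 counts with induction and 10, 3 and 38 without. *CG17192* had 0, 25 and 40 counts with induction and 12, 2 and 5 without. Both were high in induced replicates 2 and 3 and low in induced replicate 1, and both groups overlapped. *CG6296* (1, 3 and 5 against 2, 0 and 6) and *CG8093* (4, 0 and 5 against 5, 1 and 2) were at the level of single counts. *CG6277* had 6, 1 and 0 counts with induction and 0, 0 and 1 without, and *CG6283* had 1, 1 and 2 with induction and 0 in each control. A count of 0 allows up to 3 counts, or 0.318 to 0.576 CPM over the 6 libraries. These limits cover counting error only.

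**Figure D4:**
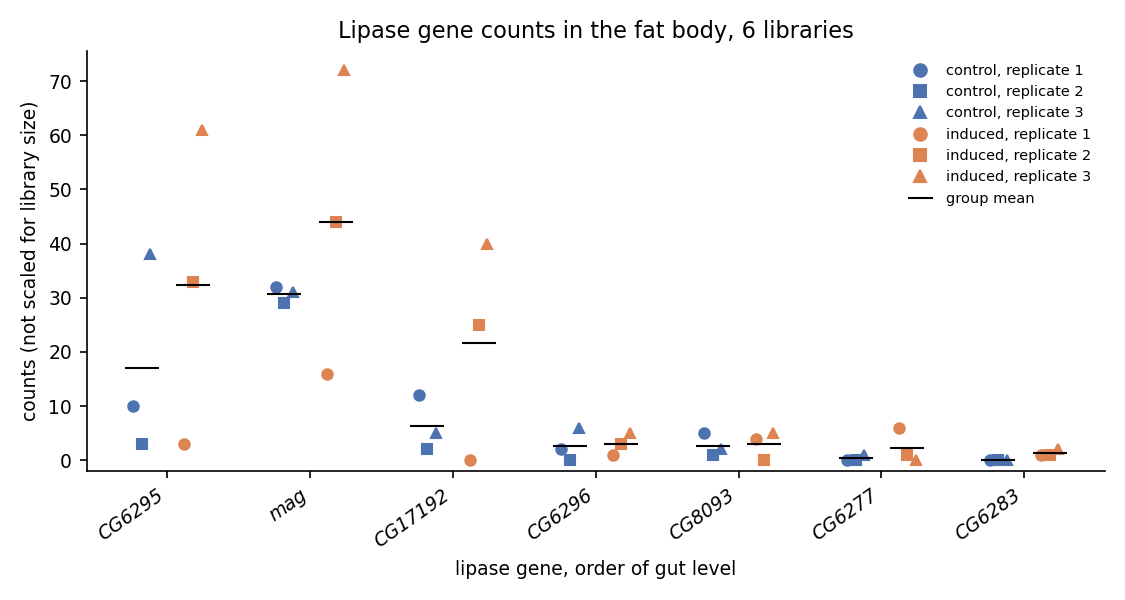
Counts of the 7 lipase genes listed in the fat body, in each of the 6 fat body libraries, not scaled for library size; colours, shapes and bars are as in the plot of gut levels. Induced replicate 3 is highest for *CG6295* (61), *mag* (72) and *CG17192* (40), and induced replicate 1 is low for all 3.

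No lipase gene passed the test for induction in the fat body either. edgeR called 0 of the 7, where it called 0 of all 11056 genes (0%), and DESeq2 called 0 of the 7 beside 16 genes (0.145%). At an unadjusted p under 0.05 there were 0 lipase genes, and 2.73% of all genes. All 7 fitted values were positive, with a median of 0.81 against -0.05 over all genes, but *CG6283* has no control count, and with it at its bound (4 counts against a floor of 3 over the group) the median was 0.46. Without induced replicate 3, which held the most lipase counts, the median was -0.06, and without control replicate 3 it was 1.498. *mag* had a log2 fold change of 0.46 (SE 0.44, 95% interval -0.57 to 1.49), and *CG17192* one of 1.62 (SE 1.14, 95% interval -1.04 to 4.27). The groups of *CG6283* did not overlap, as was the case for 8.27% of all fat body genes (3.98% with the induced group higher), on 4 counts against 0.

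Within each fat body group, the summed gut markers and the summed lipase genes ranked the libraries in the same order. The 17 gut markers summed to 33.2, 112 and 140 CPM with induction and to 92.1, 52.6 and 110 CPM without, while the 7 lipase genes summed to 5.95, 11.4 and 22.4 CPM and to 7.87, 4.69 and 10.8 CPM. In each group, the library with the most gut marker CPM also had the most lipase CPM. The ratio of the 2 sums was not constant. The lipase sum was 17.9%, 10.2% and 16.0% of the gut marker sum in induced fat bodies and 8.54%, 8.91% and 9.81% in control ones, without overlap. In guts it was 9.77%, 11.7% and 12.4% with induction and 8.54%, 8.003% and 10.6% without. Between 13 and 17 of the 17 gut markers had counts in a fat body library, and *Mal-A8*, a maltase gene, had 0 in all 3 induced ones. Whether traces of gut in the dissected abdomens supplied the lipase counts was not tested.

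The tissue difference was the one contrast in which any of the 10 lipase genes were called. Gut and abdomen were dissected from flies in turn, so libraries of both tissues may share flies, which the labels do not record and the fit does not take into account. In control flies 7 of 7 were higher in the gut, where 19.9% of the 10005 genes in both tables were called higher, 18.3% lower and 38.2% in either direction. In induced flies 7 of 7 were higher in the gut too, where 21% of genes were called higher, 22.7% lower and 43.8% in either direction. DESeq2 also called 7 of 7 in both, beside 38.9% and 44.3% of all genes. In bulk tissue, fewer cells of a type and less RNA per cell cannot be told apart.

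On the common scale of all 12 libraries, *mag* averaged 2177 CPM in control gut and 3.54 CPM in control fat body (log2 difference 9.26, SE 0.47, adjusted p = 3.9e-08). In induced flies it averaged 2787 against 4.89 CPM (9.13, SE 0.46, adjusted p = 4.9e-08). *CG6295* averaged 3352 against 1.94 CPM in controls (10.74, SE 1.12) and 3057 against 3.42 CPM with induction (9.76, SE 1.08). *CG17192* averaged 1140 against 0.717 CPM in controls (10.59, SE 0.99) and 1386 against 2.24 CPM with induction (9.20, SE 0.91). In control and in induced flies alike, the 3 gut libraries lay above the 3 fat body libraries for each of the 7 genes. The same separation of 3 from 3 libraries was seen for 19.5% of all genes in control and for 27.4% in induced flies.

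*CG6296* differed by 10.01 (SE 0.64) in control and by 9.70 (SE 0.64) on the log2 scale in induced flies, and *CG8093* by 9.19 (SE 0.89) and 9.49 (SE 0.89). *CG6283* had no counts in control fat body, and was at least 492-fold higher in control gut against a floor of 3 counts over the group. The bound was 265-fold without control gut replicate 1, and 322-fold and 326-fold without control fat body replicates 1 and 3. *CG6277* had 1 count there, for a ratio of 1718 with a 95% counting interval of 308 to 67914. With induction the 2 genes differed by 8.53 (SE 0.82) and 8.35 (SE 0.86) on the log2 scale. The median over the 7 was 10.31 in controls, or 10.01 with *CG6283* at its bound, and 9.20 in induced flies. Over all genes the medians were 0.00 and -0.05.

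Single fat body libraries moved several of the other differences by over 1.5-fold without ending a call. *mag* did not move that far: its log2 difference stayed within 9.15 to 9.32 in control and 8.86 to 9.70 in induced flies. In control flies the log2 difference without fat body replicate 3 was 12.10 for *CG6295* and 11.30 for *CG6296*, and *CG6277* had no fat body count left. Without control fat body replicate 1 it was 11.38 for *CG17192* and 9.94 for *CG8093*. In induced flies it was 10.07 for *CG17192*, 10.67 for *CG6295* and 7.76 for *CG6277* without fat body replicate 3, 10.56 for *CG6277* without replicate 1, where 1 count was left, and 8.80 for *CG8093* without replicate 2.

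The size of the tissue difference resembled that of other gut enzymes. In control flies the mean fat body level was 0.0550% to 0.163% of the gut level for the 6 lipase genes with fat body counts, with a median of 0.0769%. It was 0.0214% to 3.88% for the 17 gut markers, with a median of 0.0956%. In induced flies the range was 0.110% to 0.373% for 7 lipase genes, with a median of 0.161%, and 0.0363% to 3.46% for the 16 markers with fat body counts, with a median of 0.140%. The 2 markers with the highest fat body share in both cases were *GATAe*, a gut GATA factor, and *mex1*, an enterocyte gene. The trypsin, Jonah protease and maltase genes and *Npc1b* were at or below 0.307% throughout.

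**Figure D5:**
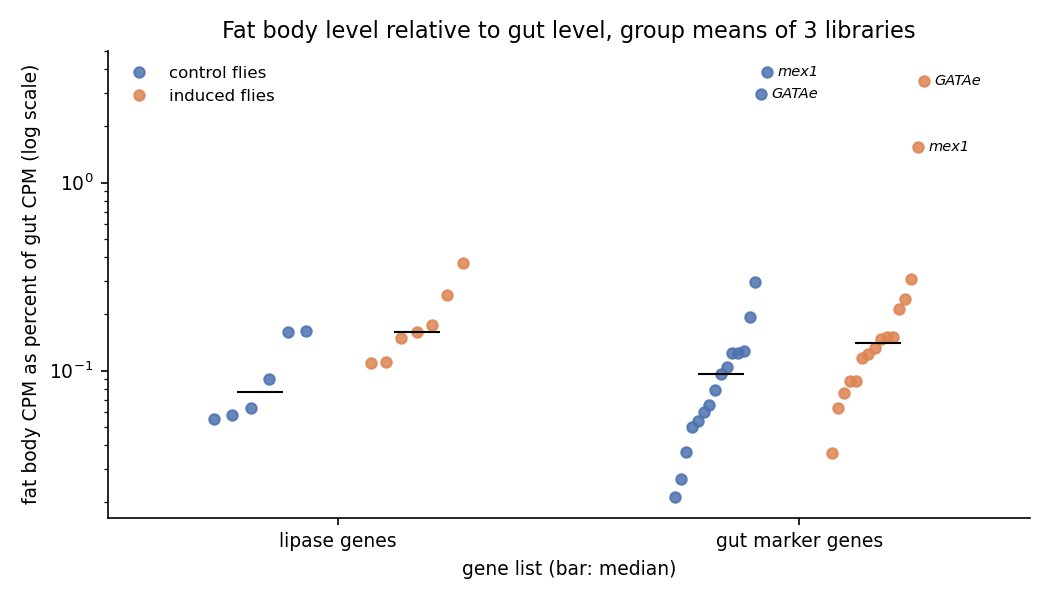
Mean fat body CPM as a percent of mean gut CPM, on a log axis, for the lipase genes and the 17 gut marker genes in control (blue) and induced (orange) flies; each point is a gene, each value rests on 3 libraries per tissue, black bars are medians, and genes without fat body counts are not drawn. The lipase genes (0.0550% to 0.373%) fall within the range of the gut markers, of which *GATAe* and *mex1* stand highest.

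Other lipase genes divided between the tissues. Of all genes, 19.9% were called higher and 18.3% lower in control gut, and 21% and 22.7% in induced gut. Of 4 further acid lipase family genes in both tables, 2 were called higher in the gut of control flies and 1 lower. *CG2772* differed by 9.46 (SE 0.72) and *CG3635* by 6.05 (SE 0.35) on the log2 scale, and *Lip4* was lower in the gut by -1.44 (SE 0.36). Of 11 further genes of the pancreatic lipase family, 3 were called higher (*CG10116* at 8.30, *CG10163* at 3.67 and *CG5966* at 0.98) and 4 lower (*CG17292* at -1.46, *CG13562* at -1.33 and *CG4267* at -2.37, together with *CG18258*). *CG18258* had 327, 274 and 266 counts in control fat body and 0, 0 and 1 in control gut, a ratio of 784 with a 95% counting interval of 140 to 31005. In induced flies 3 of the 4 acid lipase family genes were called higher in the gut and 1 lower. *Lip3* was among those higher (3.27, SE 1.08, adjusted p = 0.0316, edgeR). It was scarce, at 0.536, 1.88 and 0.670 CPM in induced gut and 0, 0.318 and 0 CPM in induced fat body. Of the 11 pancreatic lipase family genes, 3 were called higher and 4 lower in induced flies. *CG18258* then differed by -3.53 (SE 0.61), with 1, 9 and 28 counts in the gut. Its interaction of tissue and induction was 5.61 (SE 1.25, adjusted p = 0.862 by edgeR and 0.0233 by DESeq2). *Hr96* was higher in the gut by 3.34 (SE 0.27) in control and by 2.90 (SE 0.26) in induced flies.

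Whether induction acted differently on the lipase genes of the 2 tissues was tested by the interaction term. edgeR called 0 of 7, where it called 0 of 10005 genes (0%), DESeq2 called 0 of 7 beside 13 genes (0.13%), and 3.42% of all genes but 0 of the 7 had an unadjusted p under 0.05. The estimate was negative for 6 and positive for *CG8093* (0.29, SE 1.38). It was -0.12 (SE 0.48, 95% interval -1.16 to 0.91) for *mag* and -0.98 (SE 1.12, 95% interval -3.41 to 1.45) for *CG6295*. Fat body counts of these genes were 0 to 72 in a library. Differences within such intervals were not detectable at this depth and with this spread between libraries.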

How the data were processed

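RNA of dissected guts and fat bodies was sequenced as paired 75 base reads with molecular identifiers after 16 PCR cycles. Per the study's methods, the authors handled identifiers and duplicates with Je 1.2, used HiSat2 2.1 as aligner against release 6.19 of the genome, and took counts from featureCounts 1.6. Strand use in counting is not given in the sources used here. The deposited counts are whole reads per gene, per tissue, and the authors had left out genes with no reads or absent from an earlier experiment's analysis. The authors also deposited variance-stabilised values, treated here as a score and used only in an alternative fit.

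Counts were analysed with edgeR 4.0.16 in R 4.3.3: TMM scaling, genes with at least 1 count, the quasi-likelihood test, and Benjamini-Hochberg adjustment over all genes at 10%. Induction was fitted within each tissue (6 libraries). Tissue differences and the interaction came from 1 fit of 12 libraries over 10005 shared genes, which puts CPM on a scale of its own. edgeR put the biological coefficient of variation at 33.9% (gut) and 39.8% (fat body). Alternatives were DESeq2 1.42.0 (the study's tool), its size factors, total counts, filterByExpr, a 5% threshold, limma 3.58.1 on the score values, and each library left out. Single genes had two-sided exact permutation tests of CPM. Intervals are 95%.

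Named genes were the 10 lipase genes, the called or else the 3 most abundant genes per length of each related list, the 8 genes most like the lipase mean, *Hr96* and *pnt*. Members and lists were chosen with earlier results of these data known. Of 6 ovary markers, 5 matched a symbol. Summed CPM in gut and in fat body libraries ranged from 7.80 to 513 and 37.6 to 305 for ovary, 0 to 5.54 and 274 to 559 for spermatheca, 763 to 1043 and 1132 to 2731 for muscle, 10.3 to 37.8 and 96.7 to 254 for haemocyte, 56.3 to 181 and 95.7 to 303 for tubule, 309 to 626 and 210 to 403 for enteroendocrine, and 94.2 to 149 and 1.74 to 2.85 for copper cell markers. Such sums can hide members that differ in opposite directions. Of 6 enteroendocrine markers in both tables, 5 were called higher in control gut than in control fat body (edgeR). The remaining 1 was called lower (log2 difference -1.70), and the median of the 6 was 6.00. Of all genes, 19.9% were called higher and 18.3% lower. Nothing in the labels says whether pools came from separate cultures or cages, so p values measure the spread between these pools. Gene symbols and models came from the Ensembl BDGP6 annotation, which held 10279 of 10358 gut and 10969 of 11056 fat body identifiers. The scripts were tested on simulated counts.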

Additional observations from a re-analysis of the deposited data

How the results depend on the processing

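The number of lipase genes called was 0 for induction in the gut, 0 for induction in the fat body, 0 for the interaction and 7 of 7 for both tissue differences under every alternative run. filterByExpr kept 8 of the 10 genes in the gut fit and 3 of the 7 in the fat body fit. With total counts in place of TMM the median log2 difference of all genes moved to 0.12 in the fat body fit and to -0.25 (control) and -0.53 (induced) in the tissue fits. There, 1654 genes were higher and 2562 lower in control gut against 1995 and 1829 with TMM, and 1430 higher and 3988 lower in induced gut against 2103 and 2276. The median log2 fold change of the lipase genes in the fat body ranged from -0.063 to 1.498 as single libraries were left out, and that in the gut from 0.21 to 0.91.

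The sign of single genes turned 10 times for gut induction, 9 times for fat body induction and 7 times for the interaction, for values that passed no test. The cause was not tested. Leaving out libraries gave gut log2 fold changes of -0.036 to 1.24 for *CG6271*, -0.53 to 0.13 for *CG6295*, -0.36 to 0.10 for *CG6296*, -0.23 to 2.91 for *CG31091* and -0.25 to 0.97 for *CG6283*. In the fat body they gave -0.063 to 0.73 for *mag*, -0.10 to 2.19 for *CG6295*, -0.42 to 1.46 for *CG6296* and -0.24 to 1.05 for *CG8093*. For the interaction they gave -0.39 to 0.44 for *mag*, -3.71 to 0.24 for *CG6277*, -1.61 to 0.25 for *CG6296* and -0.45 to 0.82 for *CG8093*. limma on the variance-stabilised values gave -0.0075 for *CG8093* in the fat body. Adjusted p values of the lipase genes over all alternatives ran from 0.108 to 0.9999 for gut induction, 0.575 to 0.9999 for fat body induction and 0.542 to 0.99999 for the interaction. The depth limits the fat body, where *CG6277*, *CG6283*, *CG6296* and *CG8093* had 0 to 6 counts a library. No paired analysis was possible because the labels carry no replicate numbers shared between groups, although gut and fat body libraries may come from the same flies.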
